A study of Mus musculus with 12 samples.

Results

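Back skin of mouse embryos that lacked type II keratins was compared directly with back skin of embryos that lacked type I keratins, both taken at E18.5. The comparison used the 3 Illumina bead arrays titled Type II keratin KO and the 3 titled Type I keratin KO, 6 of the 12 arrays of the series. The other 6 arrays, 3 titled Wild type II and 3 titled Wild type I, served to mark genes that differed in the same direction between the wild types of the series. All 4 groups were C57BL/6 back skin, and the labels name no allele, promoter, Cre driver or clone for either knockout. Each knockout lies in its own series with its own title numbers, so genotype and series cannot be told apart in the knockout arrays alone. Whether each array is a different embryo is not in the labels, so a p-value here weighs a difference against the spread of 3 arrays, part of which may be technical.

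Keratins are the intermediate filament proteins of epithelia. A filament is built from pairs of a type I and a type II chain, and a chain without partner is degraded, so the loss of either class removes keratin filaments from the epidermis. Basal cells use the pair of Krt5 and Krt14, differentiating cells above them use Krt1 and Krt10, and stressed or wounded epidermis uses Krt6a, Krt6b, Krt16 and Krt17. The outermost living cells then turn into the cornified envelope, a shell of crosslinked loricrin, late cornified envelope and small proline-rich proteins embedded in filaggrin and lipid, which serine proteases later shed. The comparison therefore asks where skins that both lack filaments, but keep a different class of keratin genes, differ in their RNA.

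Levels are log2 normalized intensities, on which the dimmest probes called detected lay between 4.95 and 5.03, and differences are type II KO minus type I KO on the log2 scale ± SE, with 3 arrays per group. A gene is said to be higher or lower, or called, where limma's Benjamini-Hochberg adjusted p over all 10441 genes and unnamed probes tested was under 0.05. Between 13272 and 13603 probes were detected on the 6 knockout arrays. Type I KO replicates 1 and 2 share the title number 2705 and replicate 3 has 2602, while type II KO replicates 1, 2 and 3 have 2794, 2818 and 2819. What the numbers stand for is not in the labels, and whether the shared number bears on the spread was not tested. Pearson correlations over all tested probes were 0.932 to 0.940 between the knockouts, 0.958 to 0.972 among type II KO arrays and 0.982 to 0.991 among type I KO arrays. The type II KO arrays were thus less alike among themselves, and replicate 2 stood apart in several late differentiation genes given with their values below. Replicate 2 was also the only one of the 6 with high Xist, a transcript of female cells, which differed by 0.83 ± 0.71 (adjusted p = 0.499). Of the 10441 features, 843 (8.07%) were called: 367 (3.51%) were higher and 476 (4.56%) lower in type II KO skin. At least 2-fold differences were seen for 174 of the higher and 275 of the lower ones, and at least 8-fold differences for 10 and 43. The median difference over all features was 0.01. Each list count below stands against these 3.51% higher and 4.56% lower over all features. A gene not detected in 1 knockout group entered only through the other, so its direction was set by entry, as for 178 features. Outside the keratins this held for 3 proteases, 2 chemokines and 1 gene each of the late cornified envelope and small proline-rich lists. It also held for 1 gene each of the inhibitor, EGF receptor, antigen presentation, hair follicle and erythroid lists. Leaving out 1 array moved the number called to between 255 (without type I KO replicate 2) and 1000 (without type II KO replicate 2). It was 493 and 991 without type II KO replicates 1 and 3, and 278 and 390 without type I KO replicates 1 and 3. Where a gene was detected on only 1 or 2 arrays of a group, its difference rests in part on values not above background. A gene named below as called kept its call without each array in turn, unless a loss is stated.

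The keratin genes themselves separated the knockouts as their labels say. Of the type I keratins, 8 were measured and 7 were higher in type II KO skin. Of the type II keratins, 14 were measured and 11 were lower. Of these, 6 type I and 9 type II keratins entered only because 1 knockout group was bright, so the counts check the labels and no more. Krt14, the type I partner in basal cells, had 14.32, 14.47 and 14.52 in type II KO skin and 4.38, 4.49 and 4.42 in type I KO skin, where it was not detected. That is at least 689-fold higher in type II KO skin (adjusted p = 8.64e-09). Krt17 was at least 719-fold higher (adjusted p = 8.64e-09), and Krt23 at least 102-fold (adjusted p = 1.19e-06). Such a bound sets the brighter group's mean against the lowest detected value of each array where the gene was not detected.

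Krt16, a stress keratin of the type I class, had 14.21, 14.19 and 14.34 in type II KO skin and 4.52, 4.42 and 4.43 in type I KO skin. It was at least 606-fold higher (adjusted p = 8.64e-09), and its level in type II KO skin also lay above the 7.84 ± 0.59 of type II WT skin and the 8.79 ± 0.95 of type I WT skin (SD, n = 3). Krt10, the type I keratin of differentiating cells, had 12.29, 14.34 and 11.98 in type II KO skin and 5.12, 4.51 and 4.38 in type I KO skin. It was detected on 1 of the 3 type I KO arrays. The groups did not overlap, and type II KO replicate 2 lay highest, near the 14.41 ± 0.12 of type II WT skin. Krt10 differed by 8.20 ± 0.57 (adjusted p = 0.000354). Krt15, a keratin of basal and hair follicle cells, was at least 35.2-fold higher (adjusted p = 4.01e-05). Krt27, a keratin of the hair root sheath, was at least 18.3-fold higher (adjusted p = 0.00415). It was also higher by 2.18 in type II WT than in type I WT skin (adjusted p = 0.07 by limma). The changes of the knockouts against their own wild types differed for Krt27 by a fitted 2.46, which did not pass (adjusted p = 0.139). Krt33a, a hair keratin, had 5.06 ± 0.05 in type II KO skin and 4.90 ± 0.20 in type I KO skin (SD) and did not pass the test (difference 0.16 ± 0.15, adjusted p = 0.554).

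**Figure D1:**
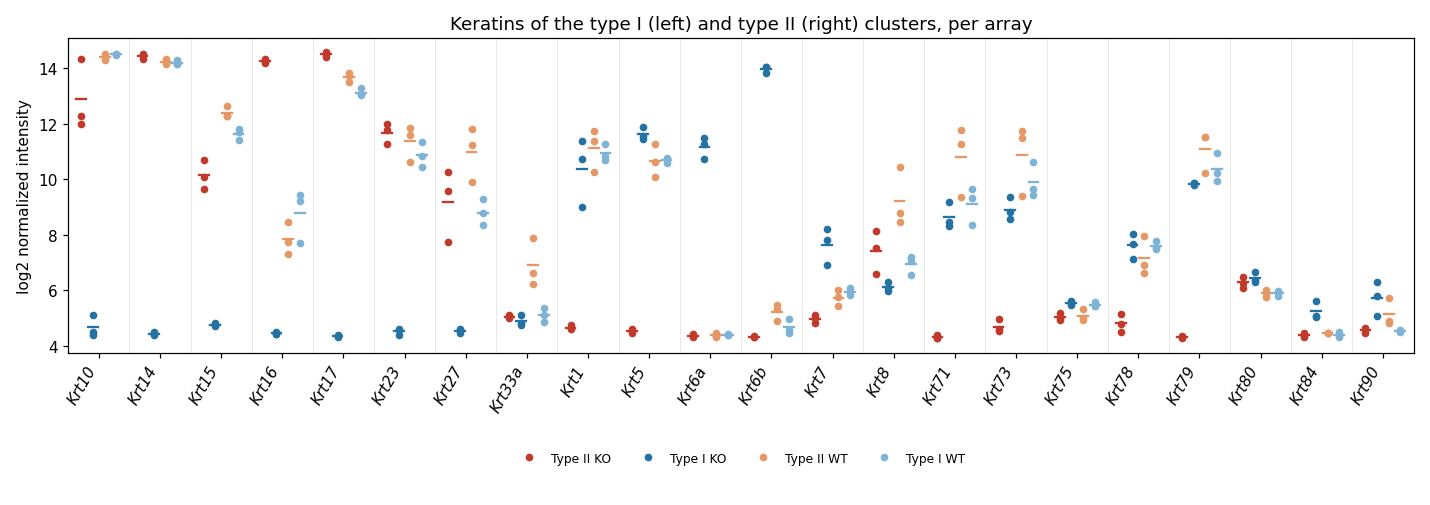
Log2 normalized intensity (y axis) of the measured keratins of both clusters, type I genes left and type II genes right, on each array; points are arrays, short lines are group means, and within a gene the groups run from type II KO, type I KO and type II WT to type I WT. Krt6b has values of 13.81 to 14.03 in type I KO skin and 4.32 to 4.37 in type II KO skin, and Krt80 has overlapping values in both knockouts.

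Among the type II keratins, Krt6b, a stress keratin, had 4.37, 4.33 and 4.32 in type II KO skin, where it was not detected, and 13.81, 14.03 and 14.03 in type I KO skin. It was at least 502-fold lower in type II KO skin (adjusted p = 9.66e-09). Type II WT and type I WT skin had 5.24 ± 0.29 and 4.67 ± 0.27, so the high level belonged to the type I KO arrays. Krt6a showed the same order with 4.31, 4.35 and 4.42 in type II KO skin and 11.27, 11.49 and 10.71 in type I KO skin, at least 72.0-fold lower (adjusted p = 2.01e-06). Krt5, the type II partner in basal cells, was at least 99.6-fold lower (adjusted p = 2.73e-07), and Krt1, the partner of Krt10, at least 41.6-fold lower (adjusted p = 0.00139). Each stress keratin class that the genotype still allowed was thus bright in its own knockout: Krt16 and Krt17 in type II KO skin, Krt6a and Krt6b in type I KO skin. Krt17 was already bright in the wild types, with 13.68 ± 0.15 in type II WT and 13.11 ± 0.14 in type I WT skin against 14.50 ± 0.09 in type II KO skin (SD).

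The root sheath keratins Krt71 and Krt73 were at least 12.7-fold and 15.2-fold lower (adjusted p = 7.78e-05 and 8.19e-05), and Krt79, a keratin of the hair canal, at least 28.7-fold lower (adjusted p = 2.73e-07). Krt7, a keratin of simple epithelia, differed by -2.66 ± 0.31 and Krt78 by -2.81 ± 0.27 (adjusted p = 0.00364 and 0.00158), detected on 2 and 1 of the 3 type II KO arrays. Krt84 and Krt90 were dim, with at least 1.19-fold and 1.68-fold lower values (adjusted p = 0.0348 and 0.0482). The call of Krt84 was lost without any of the 6 arrays and that of Krt90 without all but type I KO replicate 3 (adjusted p of 0.0542 to 0.0945 and of 0.0708 to 0.157). Krt8, the type II keratin of simple epithelia, had 6.60, 7.52 and 8.15 in type II KO skin and 6.07, 5.99 and 6.29 in type I KO skin. It was detected on all 6 arrays, its groups did not overlap, as held for 33.1% of all features, and it did not pass the test (1.30 ± 0.35, adjusted p = 0.0637). Krt80 had 6.10, 6.48 and 6.28 in type II KO skin and 6.36, 6.66 and 6.31 in type I KO skin, with overlapping groups (-0.16 ± 0.17, adjusted p = 0.598). Krt75 differed by -0.50 ± 0.14 (adjusted p = 0.0666). Whether the probes of Krt8 and Krt80 read their own transcript in type II KO skin was not tested.

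The next genes along the chromosomes were examined because a cluster deletion could reach them. Of the 15 annotated genes on each side of the type I cluster on chromosome 11, 20 were measured and 0 were called by limma. Of those around the type II cluster on chromosome 15, 19 were measured and 2 were called, Slc4a8 and Aaas, against 8.07% over all features. Slc4a8, a sodium-driven bicarbonate exchanger, had 7.26, 7.03 and 6.98 in type II KO skin and 5.19, 5.27 and 5.52 in type I KO skin. It was higher by 1.76 ± 0.16 (adjusted p = 0.00122), while type II WT and type I WT skin had 5.01 ± 0.09 and 5.15 ± 0.32. Aaas, a nuclear pore protein, was higher by 0.76 ± 0.18 (adjusted p = 0.0464), a call lost without any array except type II KO replicate 2 (adjusted p of 0.0744 to 0.176).

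Many genes of the cornified envelope were lower in type II KO skin, and outside the keratins the late cornified envelope genes had the lowest median of the lists examined. Of 14 late cornified envelope genes measured, 13 were lower, with a list median of -3.30, against 4.56% lower and a median of 0.01 over all features. The count was 9, 10 and 8 without type I KO replicates 1, 2 and 3. Lce3b and Lce3c lost their call without any 1 of these, and Lce3c also without type II KO replicate 1. Between the wild types 0 of the 14 were called by limma, with a median of -0.60, and Lce1g, Lce3b and Lce3c, named after their values were seen, differed there by -1.33, -1.04 and -1.01 (adjusted p = 0.0585, 0.247 and 0.244). Lce1c had 10.23, 8.77 and 8.32 in type II KO skin and 13.62, 13.17 and 13.30 in type I KO skin, a difference of -4.26 ± 0.44 (adjusted p = 0.00219). The type I KO values lay close to the 13.20 ± 0.43 and 13.54 ± 0.26 of type II WT and type I WT skin, and the type II KO values well below them. Lce1i differed by -4.79 ± 0.51 and Lce1f by -4.18 ± 0.36 (adjusted p = 0.00252 and 0.00112), and Lce1i was detected on 2 of the 3 type II KO arrays. Lce3a was the member that did not pass (-2.08 ± 0.55, adjusted p = 0.0593). The Lce1 genes are close copies of each other, and whether their probes read each other's transcripts was not tested.

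Of 17 genes for loricrin, the filaggrin family and envelope crosslinking, 11 were lower in type II KO skin and 0 were higher by limma (median -1.78). The count was 6 without any 1 of the type I KO replicates. Lor, loricrin, the main protein of the envelope, had 9.14, 11.59 and 7.79 in type II KO skin and 14.47, 14.14 and 14.10 in type I KO skin. The groups did not overlap, type II KO replicate 2 lay nearest to type I KO skin, and the wild types had 14.34 ± 0.05 (type II) and 14.45 ± 0.02 (type I). Lor differed by -4.73 ± 0.81 (adjusted p = 0.0156), a call that was lost without type II KO replicate 1 or any type I KO replicate (adjusted p of 0.0553 to 0.0646).

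Hrnr, hornerin, a filaggrin-like protein, had 6.45, 8.78 and 5.60 in type II KO skin and 12.54, 11.83 and 11.78 in type I KO skin (-5.11 ± 0.72, adjusted p = 0.00748). Flg2, filaggrin 2, had 4.70, 5.36 and 4.44 in type II KO skin and 9.38, 8.40 and 8.09 in type I KO skin (-3.79 ± 0.36, adjusted p = 0.00172), and was detected on 1 of the 3 type II KO arrays. In both genes the type II KO values lay below all wild-type values. Rptn, repetin, another member of the filaggrin family, had 8.42, 10.79 and 7.25 in type II KO skin and 14.24, 14.28 and 13.98 in type I KO skin. It differed by -5.35 ± 0.76 (adjusted p = 0.00769), but here type II WT and type I WT skin had only 7.0 ± 0.72 and 7.99 ± 0.31, so type I KO skin was the one far from the wild types. Hal, the enzyme that turns histidine from filaggrin into urocanic acid, differed by -4.14 ± 0.60 (adjusted p = 0.00803) and was detected on 1 of the 3 type II KO arrays. Blmh, the hydrolase that breaks filaggrin down to amino acids, differed by -1.85 ± 0.25 (adjusted p = 0.0062).

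The 250 bases before the start of Lor, Flg2 and Rptn are shown because these genes of the epidermal differentiation complex on chromosome 3 were lower together, and each holds the AP-1 motif TGANTCA, in capitals. They are RefSeq promoters of build GRCm38.p6, read 5′ to 3′ on the gene's strand: Lor from the minus strand of chr3:92083143-92083392, Flg2 from the plus strand of chr3:93197023-93197272 and Rptn from the plus strand of chr3:93393449-93393698.
Lor: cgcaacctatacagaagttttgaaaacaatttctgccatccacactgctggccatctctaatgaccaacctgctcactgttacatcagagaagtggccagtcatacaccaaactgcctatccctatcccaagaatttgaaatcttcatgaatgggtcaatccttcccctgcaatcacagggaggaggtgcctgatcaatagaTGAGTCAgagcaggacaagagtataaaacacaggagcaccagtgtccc
Flg2: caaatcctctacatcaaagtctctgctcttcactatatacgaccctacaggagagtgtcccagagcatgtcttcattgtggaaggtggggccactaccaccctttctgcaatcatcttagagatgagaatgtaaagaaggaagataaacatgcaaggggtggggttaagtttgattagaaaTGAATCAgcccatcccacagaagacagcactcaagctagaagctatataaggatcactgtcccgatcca
Rptn: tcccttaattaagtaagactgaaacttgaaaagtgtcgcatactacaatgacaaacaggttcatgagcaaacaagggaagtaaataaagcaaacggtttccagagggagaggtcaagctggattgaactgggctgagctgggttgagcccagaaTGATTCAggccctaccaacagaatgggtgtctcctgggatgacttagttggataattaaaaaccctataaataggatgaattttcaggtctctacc
The motif begins 48, 69 and 96 bases before the start of Lor, Flg2 and Rptn. It reads the same on both strands, and a script found it in 9.94% of the 352 promoters of genes lower in type II KO skin and 8.53% of the 258 of higher ones. Over all 7771 tested genes with a promoter entry the share was 4.86%, and over all 27025 RefSeq promoters 6.87%. A match is a run of letters, not evidence of binding.

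Small proline-rich genes, which cluster beside loricrin, differed less. Of 13 measured, 3 were lower in type II KO skin and 0 higher by limma (median -0.66): Sprr2g by -1.02 ± 0.15, Sprr3 by -1.13 ± 0.22 and Sprr2i by -3.04 ± 0.64 (adjusted p = 0.0088, 0.0256 and 0.0304). Sprr3 was not detected in type II KO skin (4.38 ± 0.03, SD) and entered only through type I KO skin. Its direction was thus set by entry, and its difference is a fitted value and not a measured size. Sprr2i had 8.50, 7.51 and 7.14 in type II KO skin and 11.56, 11.49 and 9.21 in type I KO skin, and was not detected on any wild-type array. The call of Sprr2g was lost without type I KO replicate 2 (adjusted p = 0.0508), that of Sprr3 without type II KO replicate 1 or type I KO replicates 1 or 3 (0.0659 to 0.0762), and that of Sprr2i without type II KO replicates 2 or 3 or type I KO replicates 1 or 2 (0.0605 to 0.114).

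**Figure D2:**
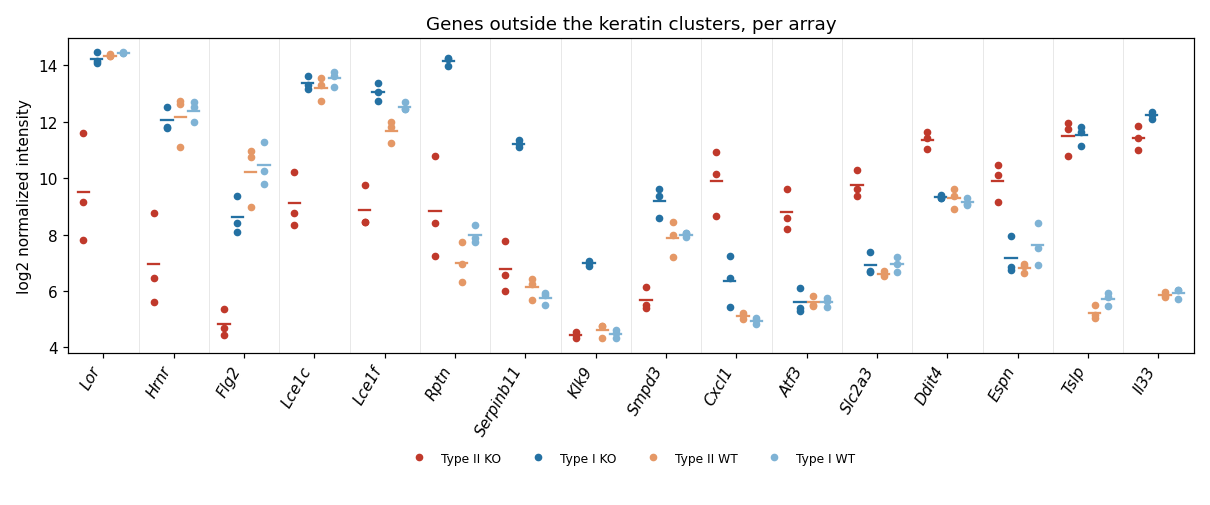
Log2 normalized intensity (y axis) of 16 genes outside the keratin clusters on each array; points are arrays, short lines are group means, and within a gene the groups run from type II KO, type I KO and type II WT to type I WT. Lor is at 7.79 to 11.59 in type II KO skin and at 14.10 to 14.47 in type I KO skin, while Slc2a3 and Ddit4 are brightest in type II KO skin and Tslp overlaps between the knockouts.

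Many proteases of the outer epidermis were lower in type II KO skin. Of 21 kallikreins and other epidermal proteases, 11 were lower and 1 higher (median -1.04), and 9, 9 and 10 were lower without type II KO replicates 1, 2 and 3 and 7, 6 and 7 without type I KO replicates 1, 2 and 3. Among the 21 are 3, with Klk9, that were not detected in 1 knockout group, so their direction was set by entry. Klk9 had 4.44, 4.53 and 4.33 in type II KO skin, where it was not detected, and 6.98, 6.88 and 7.07 in type I KO skin. It was at least 3.97-fold lower (adjusted p = 8.19e-05), and the wild types lay at the type II KO level with 4.61 ± 0.25 and 4.48 ± 0.14 (type II and type I). Klk8 differed by -1.82 ± 0.19 and cathepsin L (Ctsl) by -1.68 ± 0.18 (adjusted p = 0.00233 and 0.00256). Klk5, which activates other kallikreins, had 7.56, 8.90 and 7.02 in type II KO skin and 11.16, 10.83 and 11.42 in type I KO skin (-3.31 ± 0.44, adjusted p = 0.006). Klk6 had 10.05, 9.96 and 8.41 in type II KO skin and 12.85, 12.74 and 12.92 in type I KO skin (-3.36 ± 0.40, adjusted p = 0.00407), both far above its wild-type levels of 5.18 ± 0.17 (type II) and 4.66 ± 0.22 (type I). The higher gene was Adam8, a membrane metalloprotease (1.82 ± 0.30, adjusted p = 0.0141), and its call was lost without type I KO replicates 1 or 2 (0.0605 to 0.0631). Klk5, Klk6 and Adam8 were named after their values were seen.

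Of 18 protease inhibitors, 5 were lower and 0 higher by limma (median -0.76). Serpinb11 had 6.56, 7.76 and 6.00 in type II KO skin and 11.22, 11.11 and 11.35 in type I KO skin, a difference of -4.45 ± 0.40 (adjusted p = 0.00122). Its type II KO values lay near the 6.12 ± 0.39 and 5.76 ± 0.23 of type II WT and type I WT skin, and its type I KO values far above. Wfdc5 differed by -2.37 ± 0.31 and Spink12 was at least 1.99-fold lower (adjusted p = 0.00552 and 0.00269). The cystatin genes Csta1 and Stfa2, named after their values were seen, differed by -1.48 ± 0.33 and -1.61 ± 0.39 (adjusted p = 0.036 and 0.0458). Both lost their call without any 1 type I KO replicate, and Csta1 also without type II KO replicates 1 or 3 (0.0501 to 0.123 for Csta1 and 0.125 to 0.147 for Stfa2). The count was 9 without type II KO replicate 2 and 3 without any 1 type I KO replicate.

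Some of the genes for the lipids of the skin barrier were lower in type II KO skin. Of 37 measured, 12 were lower and 0 higher by limma (median -0.46), with 15 without type II KO replicate 2, 8 without type II KO replicate 1, and 7, 9 and 7 without type I KO replicates 1, 2 and 3. Smpd3, a neutral sphingomyelinase, had 6.15, 5.51 and 5.40 in type II KO skin and 9.61, 8.57 and 9.35 in type I KO skin (-3.49 ± 0.31, adjusted p = 0.00117). The wild types lay between the knockouts, with 7.87 ± 0.63 in type II WT and 8.0 ± 0.09 in type I WT skin. Sdr9c7, a dehydrogenase that acts on ceramide-bound fatty acids, had 5.35, 7.15 and 5.80 in type II KO skin and 9.93, 9.62 and 9.74 in type I KO skin (-3.66 ± 0.41, adjusted p = 0.0031). Lipn, a lipase of the granular layer, differed by -2.20 ± 0.24 (adjusted p = 0.00276).

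Of 17 cholesterol synthesis genes, 2 were lower, Stard4 and Idi1 (-1.16 ± 0.27 and -0.78 ± 0.19, adjusted p = 0.0441 and 0.0492), and the list median was 0.04. Both calls were lost without type II KO replicate 2 or any 1 type I KO replicate (0.0641 to 0.149 for Stard4 and 0.0759 to 0.154 for Idi1), that of Stard4 also without type II KO replicate 3 and that of Idi1 without type II KO replicate 1. Stard4 differed by -1.12 between the wild types (adjusted p = 0.104), and the changes of the knockouts against their own wild types differed by -0.04 (adjusted p = 0.976). Between the wild types this list had 6 of 17 higher in type II WT skin (0.441% over all features) and a median of 0.72.

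Epidermal cytokine genes of the interleukin-1 family, 3 in number, were lower in type II KO skin, while Il33, also of that family, did not pass the test. The alarmin Tslp lay far above the wild types in both knockouts. Of 20 alarmins and interleukins, 4 were lower and 0 higher by limma (median -0.06). Il1f6, an interleukin-36, had 4.72, 4.73 and 5.22 in type II KO skin and 8.44, 7.42 and 7.84 in type I KO skin (-3.01 ± 0.27, adjusted p = 0.00135), and was detected on 1 of the 3 type II KO arrays. Il1f5, the antagonist of the interleukin-36 receptor, differed by -2.72 ± 0.22, and Il18, a cytokine of the same family, by -2.26 ± 0.32 (adjusted p = 0.000755 and 0.00751). The interleukin-7 receptor Il7r, named after its values were seen, differed by -0.93 ± 0.23 (adjusted p = 0.0497) and lost its call without any array but type II KO replicate 3 (0.0868 to 0.165).

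Tslp, a cytokine linked to atopic disease, had 10.79, 11.73 and 11.97 in type II KO skin and 11.15, 11.80 and 11.62 in type I KO skin. These overlapped (-0.03 ± 0.32, adjusted p = 0.970), and all 6 lay far above the 5.22 ± 0.24 and 5.72 ± 0.23 of type II WT and type I WT skin. Il33, another alarmin, had 10.99, 11.42 and 11.86 in type II KO skin and 12.10, 12.24 and 12.35 in type I KO skin. The groups did not overlap, yet the difference of -0.81 ± 0.23 did not pass (adjusted p = 0.0699).

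Some chemokines were higher in type II KO skin. Of 19 measured, 5 were higher and 0 lower by limma, with a median of 0.93, against 3.51% higher over all features. None of the 5 was called without type I KO replicates 1 or 2, and of the 5 Cxcl5 and Ccl2 were called without type II KO replicate 1. Cxcl1, which attracts neutrophils, had 10.14, 10.91 and 8.66 in type II KO skin and 6.45, 5.43 and 7.22 in type I KO skin. The groups did not overlap, and type II WT and type I WT skin were lower still at 5.12 ± 0.10 and 4.94 ± 0.11. Cxcl1 differed by 3.54 ± 0.62 (adjusted p = 0.0164), a call lost without type II KO replicate 1 or type I KO replicates 1 or 2 (0.0568 to 0.0607). Cxcl5, a further neutrophil attractant, differed by 2.40 ± 0.50, and Ccl2, which attracts monocytes, by 1.86 ± 0.32 (adjusted p = 0.0294 and 0.0163), and each was detected on 1 of the 3 type I KO arrays. Ccl11, the eosinophil attractant eotaxin, differed by 1.35 ± 0.25, and Ccl27a, a keratinocyte chemokine named after its values were seen, by 0.93 ± 0.19 (adjusted p = 0.0189 and 0.0294). Without type I KO replicates 1 or 2 the adjusted p of Cxcl5 was 0.111 to 0.114 and that of Ccl2 0.0681 to 0.0723. Ccl11 lost its call without type II KO replicate 1 or type I KO replicates 1 or 2 (0.0615 to 0.0839), and Ccl27a without type II KO replicate 1 or any 1 type I KO replicate (0.0756 to 0.121).

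The 250 bases before the start of Cxcl1 are shown with the kappaB motif in capitals, GGGA and TTCC spaced by a pair of any bases, as the largest chemokine difference (RefSeq, GRCm38.p6, plus strand of chr5:90890995-90891244).
Cxcl1: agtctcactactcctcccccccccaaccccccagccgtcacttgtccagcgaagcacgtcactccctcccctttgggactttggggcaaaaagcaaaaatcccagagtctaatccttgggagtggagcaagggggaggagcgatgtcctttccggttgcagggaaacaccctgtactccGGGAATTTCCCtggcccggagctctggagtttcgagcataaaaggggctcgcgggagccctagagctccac
The capitals hold 2 overlapping matches, one per strand, beginning 71 and 70 bases before the start. The motif, searched on both strands, was in 3.1% of the promoters of higher genes, 0.568% of those of lower genes and 1.15% of those of all tested genes. Those shares are 8 of 258, 2 of 352 and 89 of 7771 promoters.

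Interferon-induced genes and antigen presentation genes were higher in part. Of 23 interferon-induced genes, 5 were higher and 0 lower by limma (median 0.72). They were Rsad2, an antiviral enzyme (1.03 ± 0.15), Gbp2, a GTPase (1.47 ± 0.26), Irf1, a transcription factor (1.22 ± 0.22), and, named after their values were seen, Ddx58, a sensor of viral RNA (1.07 ± 0.21), and Isg15 (1.01 ± 0.18). Their adjusted p were 0.00824, 0.0179, 0.018, 0.0243 and 0.0184, and all but Rsad2 lost the call without at least 1 type I KO replicate (0.0553 to 0.0765 for Gbp2, 0.0575 to 0.0796 for Irf1, 0.064 to 0.0842 for Ddx58 and 0.0575 to 0.0898 for Isg15). Irf1 and Isg15 lost it also without type II KO replicate 1. The count was 13 without type II KO replicate 3 and 1, 2 and 2 without type I KO replicates 1, 2 and 3. In the model of all 12 arrays, Rsad2 had an adjusted p of 0.065. Of 17 antigen presentation genes, 3 were higher, the class II gene H2-Ab1 and the class I-like genes H2-T23 and H2-M3 (1.19 ± 0.21, 1.10 ± 0.21 and 1.14 ± 0.22, adjusted p = 0.0181, 0.0212 and 0.024), and the count was 0 without type II KO replicate 1 or type I KO replicate 2. H2-T23 lost its call also without type I KO replicates 1 or 3, H2-Ab1 without type I KO replicate 1 and H2-M3 without type I KO replicate 3.

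**Figure D3:**
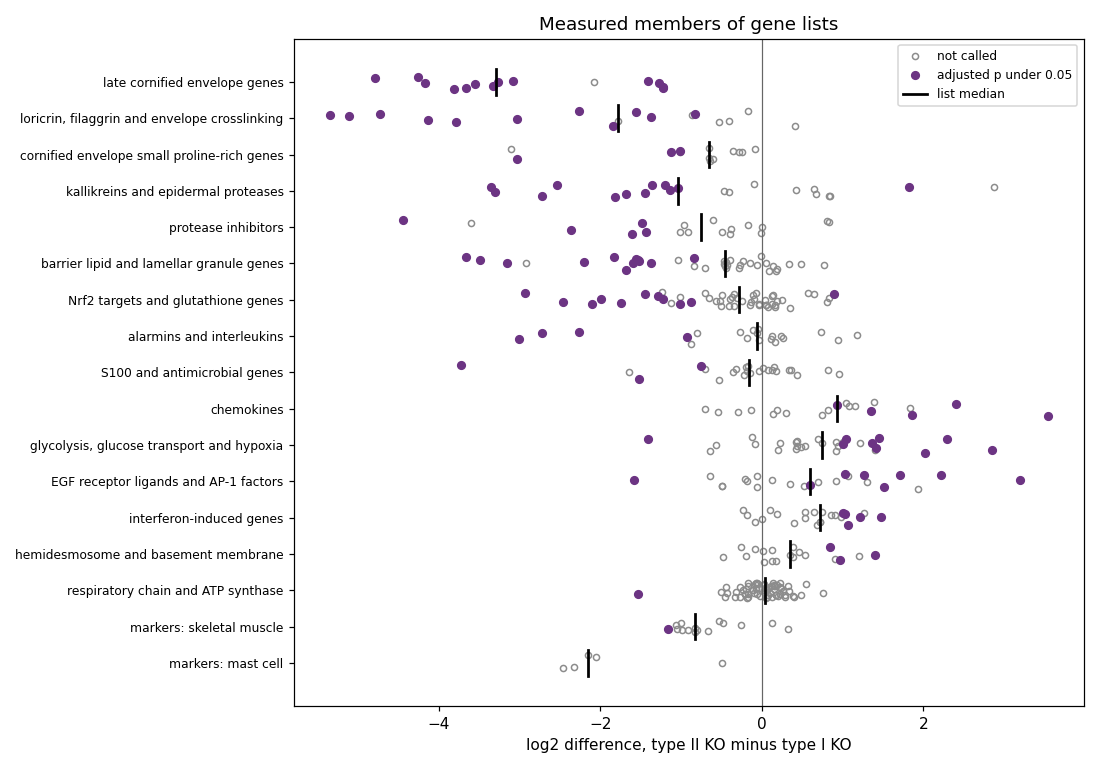
Log2 difference, type II KO minus type I KO (x axis), of each measured member of 17 gene lists (rows); filled points have an adjusted p under 0.05 in limma, open points do not, and the bar is the list's median. Envelope, kallikrein and lipid lists have filled points mostly below 0 (medians of -3.30, -1.78, -1.04 and -0.46), while chemokine and glycolysis lists have them mostly above 0 (medians of 0.93 and 0.75).

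Some genes of glucose uptake and of the hypoxia response were higher in type II KO skin. Of 29 measured, 8 were higher and 1 lower (median 0.75), with 13 higher without type II KO replicate 3 and 5 and 3 without type I KO replicates 1 and 2. Slc2a3, a glucose transporter, had 10.29, 9.62 and 9.37 in type II KO skin and 6.67, 6.70 and 7.37 in type I KO skin, a difference of 2.85 ± 0.29 (adjusted p = 0.00208). Type I KO skin lay at the wild-type levels of 6.60 ± 0.08 (type II) and 6.93 ± 0.27 (type I), and type II KO skin above them. Ddit4, an inhibitor of mTOR signalling induced by low oxygen, had 11.62, 11.41 and 11.03 in type II KO skin and 9.31, 9.39 and 9.28 in type I KO skin (2.02 ± 0.18, adjusted p = 0.00117). Its wild-type levels were 9.30 ± 0.35 (type II) and 9.15 ± 0.13 (type I), again like type I KO skin. Ndrg1, a hypoxia-induced gene named after its values were seen, differed by 1.41 ± 0.18 (adjusted p = 0.00552). The lower gene was Pfkfb4, a regulator of glycolysis (-1.41 ± 0.16, adjusted p = 0.00338).

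The promoter of Ddit4 is shown with the core motif of hypoxia response elements, ACGTG, in capitals (RefSeq, GRCm38.p6, minus strand of chr10:59951771-59952020).
Ddit4: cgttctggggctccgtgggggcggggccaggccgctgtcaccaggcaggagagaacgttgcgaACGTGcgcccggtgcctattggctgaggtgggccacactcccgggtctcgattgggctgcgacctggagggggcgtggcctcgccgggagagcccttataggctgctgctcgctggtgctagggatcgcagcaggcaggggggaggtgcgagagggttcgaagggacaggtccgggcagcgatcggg
It begins 187 bases before the start. On both strands (CACGT on the other) the motif was in 23.3% of the promoters of higher genes, 18.2% of those of lower genes and 21.8% of those of all tested genes, so this short motif was nearly as frequent in the background.

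Some immediate-early and growth factor genes were also higher. Of 23 genes listed for the EGF receptor, its ligands, AP-1 and other immediate-early factors, 7 were higher and 1 lower (median 0.59). The higher ones were Atf3, Fos, Nrg1, Zfp36, Dusp1, Ier3 and the receptor Egfr itself, and the lower one was the ligand Btc. Fos, Zfp36, Dusp1, Ier3 and Egfr were named after their values were seen, and each lost its call without at least 1 array. The higher count was 4, 5 and 7 without type II KO replicates 1, 2 and 3 and 1, 1 and 4 without type I KO replicates 1, 2 and 3. Atf3, a stress-induced transcription factor, had 8.18, 9.63 and 8.57 in type II KO skin and 5.30, 5.38 and 6.09 in type I KO skin (3.20 ± 0.38, adjusted p = 0.00394). Type I KO skin did not stand apart from the 5.60 ± 0.20 and 5.60 ± 0.17 of type II WT and type I WT skin. Nrg1, neuregulin, was at least 2.29-fold higher and Btc, betacellulin, an EGF receptor ligand, was lower by -1.58 ± 0.30 (adjusted p = 0.0196 and 0.0218). Both calls were lost without any 1 type I KO replicate, and that of Btc also without type II KO replicate 1 (0.069 to 0.0776 for Nrg1 and 0.0573 to 0.0918 for Btc). Of 32 stress genes of the endoplasmic reticulum and heat shock response, 4 were higher and 0 lower by limma (median 0.12), against 3.51% higher over all features. Ddit3, a transcription factor of that stress, differed by 1.17 ± 0.17 (adjusted p = 0.00896), Trib3, its target, by 0.93 ± 0.15 (0.0126), asparagine synthetase Asns by 1.10 ± 0.21 (0.0226) and the heat shock gene Hspa1a, named after its values were seen, by 1.28 ± 0.30 (0.0414). Without type I KO replicates 1 or 2 only Ddit3 of these 4 was still called. Asns and Hspa1a also lost their call without type II KO replicate 1 or type I KO replicate 3, and Hspa1a without type II KO replicate 2.

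Called targets of Nrf2, the transcription factor of the oxidative stress response, were mostly lower in type II KO skin. Of 50 measured, 10 were lower and 1 higher (median -0.28), with 7, 12 and 10 lower without type II KO replicates 1, 2 and 3 and 5, 5 and 6 without type I KO replicates 1, 2 and 3. The 10 include Me1 (-1.45 ± 0.3, adjusted p = 0.0287), named after its values were seen, whose probes were called in opposite directions. The mean of its probes gave 0.35 (adjusted p = 0.481). Its call was lost without type II KO replicate 1 or any 1 type I KO replicate (0.0575 to 0.113). Gpx2, a glutathione peroxidase, had 5.96, 6.08 and 4.83 in type II KO skin and 8.60, 8.32 and 8.74 in type I KO skin (-2.93 ± 0.32, adjusted p = 0.00286), and was detected on 2 of the 3 type II KO arrays. The wild types lay at 4.81 ± 0.13 (type II) and 4.92 ± 0.21 (type I), below type I KO skin. Slc7a11, the cystine transporter for glutathione synthesis, had 6.48, 6.08 and 6.21 in type II KO skin and 8.01, 7.77 and 8.21 in type I KO skin (-1.74 ± 0.17, adjusted p = 0.00208). Both knockouts were above the wild types of 4.82 ± 0.20 (type II) and 5.05 ± 0.43 (type I) in this gene. Gsta2, a glutathione transferase, differed by -2.11 ± 0.28 (adjusted p = 0.00564). The higher gene, Akr1b8, an aldo-keto reductase named after its values were seen, differed by 0.89 ± 0.19 (adjusted p = 0.03) and lost its call without type II KO replicates 1 or 2 or type I KO replicates 1 or 2 (0.0525 to 0.132). Nfe2l2, which encodes Nrf2, had 8.26, 8.31 and 7.34 in type II KO skin and 7.61, 7.23 and 7.36 in type I KO skin, with overlapping groups (0.57 ± 0.27, adjusted p = 0.228).

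Respiratory chain genes showed little difference. Of 68 measured, 1 was lower and 0 higher by limma (median 0.04): Ndufb10, a subunit of complex I, by -1.54 ± 0.25 (adjusted p = 0.0116), with -1.0 between the wild types (adjusted p = 0.169). Of 27 genes of mitochondrial dynamics and biogenesis and of 55 ribosomal protein genes, 0 were called by limma (medians 0.07 and 0.04).

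A few genes of basal cell adhesion were higher in type II KO skin. Of 19 hemidesmosome and basement membrane genes, 3 were higher and 0 lower by limma (median 0.35). Itgb4, the integrin chain that holds the hemidesmosome, had 12.24, 11.63 and 12.12 in type II KO skin and 10.62, 10.40 and 10.77 in type I KO skin (1.40 ± 0.20, adjusted p = 0.00761). Type I KO skin lay near the wild-type levels of 10.39 ± 0.13 (type II) and 10.28 ± 0.17 (type I). Lamb3, a laminin chain, and Cd151, a tetraspanin of the same complex, differed by 0.97 ± 0.22 and 0.84 ± 0.20 (adjusted p = 0.0416 and 0.0478). Both lost their call without type II KO replicate 1 or type I KO replicates 1 or 2, Lamb3 also without type II KO replicate 2 and Cd151 also without type II KO replicate 3 or type I KO replicate 3 (0.0557 to 0.147 and 0.0691 to 0.177).

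Of 12 desmosome genes, 2 were higher and 1 lower (median 0.07). Pkp2, a plakophilin, had 7.82, 6.73 and 7.50 in type II KO skin and 5.49, 5.46 and 5.60 in type I KO skin (1.84 ± 0.26, adjusted p = 0.00795). Dsg3, a desmosomal cadherin of basal cells, differed by 1.86 ± 0.33, and Cdsn, corneodesmosin of the outer layers, by -1.57 ± 0.31 (adjusted p = 0.017 and 0.0255). The call of Dsg3 was lost without type I KO replicates 1 or 2 (0.0723 to 0.0738) and that of Cdsn without any 1 type I KO replicate (0.0738 to 0.0934). Cldn4, a claudin of tight junctions, was the 1 gene called of 20 junction genes (1.90 ± 0.38, adjusted p = 0.0265), and lost its call without type II KO replicates 1 or 3 or type I KO replicates 1 or 2 (0.0545 to 0.106). Espn, which bundles actin, had 10.46, 10.11 and 9.17 in type II KO skin and 6.75, 6.83 and 7.96 in type I KO skin (2.73 ± 0.41, adjusted p = 0.00952).

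Marker genes of other cell types in whole skin were set beside these results. Fewer cells of a type and less RNA per cell cannot be told apart in such samples. The summed linear intensity of 9 keratinocyte markers outside the keratin clusters was 17180 to 17516 in type II KO skin and 31771 to 37448 in type I KO skin, and 2 of the 9 were higher (Dsg3 and Itgb4) and 2 lower (Lor and Ivl). The median difference of the 9 was 0.09, and the sum includes Lor, which averaged 9.51 in type II KO and 14.24 in type I KO skin on the log2 scale. Ivl, involucrin, lost its call without any 1 type I KO replicate (0.0636 to 0.074). All 5 mast cell markers measured had negative differences and 0 passed the test by limma, while 4 were called lower in the model of all 12 arrays and 4 without type II KO replicate 3. Their summed level was 1108 to 9719 in type II KO skin and 10328 to 16811 in type I KO skin (median -2.15). The mast cell tryptase Tpsab1, not on that list, had 4.66, 4.89 and 6.01 in type II KO skin and 10.20, 10.18 and 11.20 in type I KO skin (-5.34 ± 0.40, adjusted p = 0.000591), and was detected on 1 of the 3 type II KO arrays. It varied widely among wild types too, with 5.48, 5.03 and 10.57 in type II WT and 10.08, 6.51 and 11.71 in type I WT skin. Of 15 muscle markers, 1 was lower, troponin Tnnt3 (-1.16 ± 0.24, adjusted p = 0.0287), and the summed level was 34529 to 70036 in type II KO skin and 78868 to 84805 in type I KO skin (median -0.83). Erythroid markers summed to 23318 to 26461 in type II KO skin and 13068 to 17746 in type I KO skin, with 2 of 4 higher, Slc4a1 and Hba-a1. The calls of Tnnt3, Slc4a1 and Hba-a1 were each lost without type II KO replicate 1 or any 1 type I KO replicate, and those of Slc4a1 and Hba-a1 also without type II KO replicate 2 (0.0738 to 0.0999, 0.0517 to 0.0919 and 0.0573 to 0.154). Neutrophil markers summed to 10509 to 18421 in type II KO skin and 11597 to 14833 in type I KO skin, and reached at most 521 in any wild-type array. The part of these cell types in the differences above was not tested.

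Of 24 S100 and antimicrobial genes, 3 were lower in type II KO skin and 0 higher by limma (median -0.16). Chil1, a chitinase-like protein, had 7.49, 8.65 and 7.42 in type II KO skin and 11.79, 10.96 and 12.01 in type I KO skin (-3.73 ± 0.39, adjusted p = 0.00219). Type II KO skin was near the wild types of 7.75 ± 0.42 (type II) and 7.81 ± 0.49 (type I), and type I KO skin above them. Pglyrp4, a peptidoglycan recognition protein, differed by -1.52 ± 0.26 and S100a4, a calcium-binding protein, by -0.75 ± 0.17 (adjusted p = 0.0164 and 0.0417). Pglyrp4 lost its call without type I KO replicates 1 or 3 (0.0645 to 0.0659) and S100a4 without any array but type II KO replicate 3 (0.0618 to 0.164). Outside the lists, Lgi2, a secreted leucine-rich protein, was higher by 2.54 ± 0.31 (adjusted p = 0.00438). Plet1, a surface protein of epithelial progenitors, was higher by 2.63 ± 0.58 (adjusted p = 0.0349), was detected on 1 of the 3 type I KO arrays and lost its call without any array but type I KO replicate 3 (0.0517 to 0.125).

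Wild-type arrays of the same 2 series differed in 152 genes (1.46%), of which 46 (0.441%) were higher and 106 (1.02%) lower in type II WT than in type I WT skin. The groups did not overlap for 28.3% of all features. Of the 843 genes called between the knockouts, 36 were called in the same direction between the wild types, 14 higher and 22 lower, which is 4.27% of the knockout calls and 23.7% of the wild-type calls. A further 3 were called in opposite directions. These 36 are not attributed to genotype here. Paip1, which binds poly(A)-binding protein, had 5.08, 5.16 and 4.50 in type II KO skin and 9.38, 9.11 and 8.93 in type I KO skin (-4.23 ± 0.22, adjusted p = 6.91e-05). It had 4.89, 4.92 and 4.62 in type II WT skin and 8.28, 8.21 and 8.77 in type I WT skin (-3.61, adjusted p = 0.000352), so the same step was present without the knockouts.

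Tac1, the precursor of substance P, differed by -2.80 ± 0.40 between the knockouts and by -3.42 between the wild types (adjusted p = 0.00769 and 0.00979). The histone gene H2aj was at least 3.56-fold higher in type II KO skin and higher by 2.10 in type II WT skin (adjusted p = 0.000243 and 0.0128). Gjd4, a connexin, differed by -2.34 ± 0.38 between the knockouts and by -2.42 between the wild types (adjusted p = 0.0125 and 0.00973). Lars2, the mitochondrial leucyl-tRNA synthetase, was higher by 2.08 ± 0.50 and 2.65 (adjusted p = 0.0472 and 0.00027), and its knockout call was lost without any array but type I KO replicate 1 (0.065 to 0.159). The absence of a wild-type call does not show that wild types were alike: Nudt6, a nudix hydrolase, was at least 4.92-fold higher in type II KO skin (adjusted p = 0.000171) and differed by 2.15 between the wild types with an adjusted p of 0.104. In all, 169 of the 843 knockout calls had a wild-type difference of the same sign and at least 50% of the size.

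**Figure D4:**
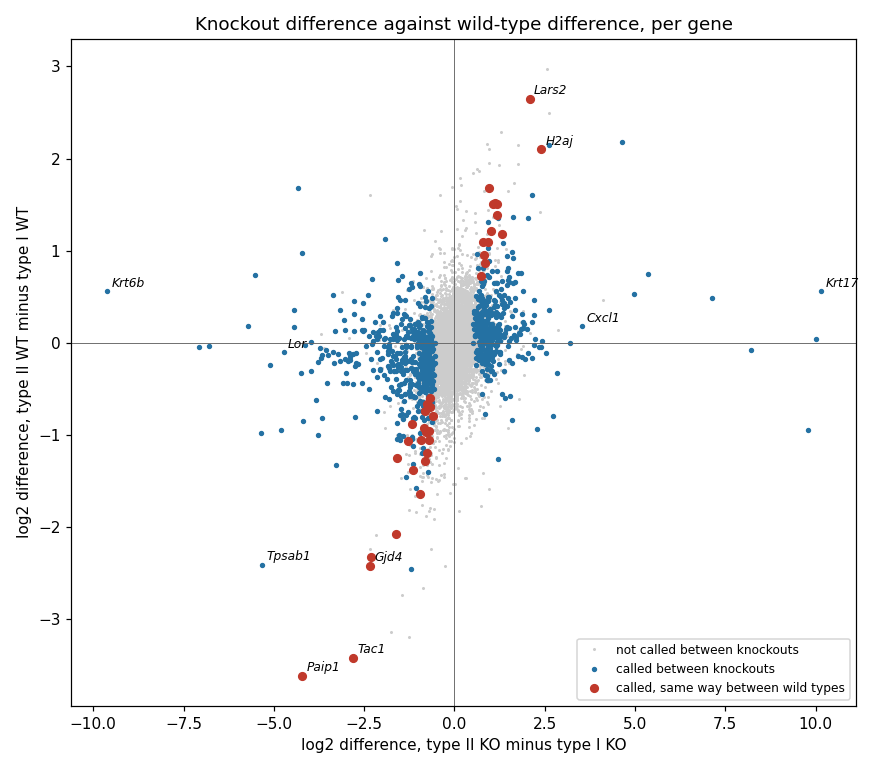
Log2 difference between the wild types, type II minus type I (y axis), against the log2 difference between the knockouts, type II minus type I (x axis), per gene or unnamed probe. Grey points were not called between the knockouts, blue points were, and red points, 36 in number, were called in the same direction between the wild types; Paip1 lies at -4.23 and -3.61, Cxcl1 at 3.54 and 0.18.

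The change of each knockout against its own wild type was also compared in a model of all 12 arrays, as a term for the difference between the changes, which shares the 6 knockout arrays with the direct comparison. That difference was called for 341 genes (3.27%), 138 (1.32%) higher and 203 (1.94%) lower in the type II change. Of the lists above, 6 of 14 late cornified envelope genes were lower in this term, and 0 of 23 interferon-induced and 0 of 17 antigen presentation genes were called by limma. Serpinb11 differed by -4.81 in this term, Smpd3 by -3.36, Lor by -4.63, Lce1c by -3.92, Slc2a3 by 3.18, Atf3 by 3.20 and Ddit4 by 1.87 (adjusted p = 0.000333, 0.0023, 0.0196, 0.00266, 0.000576, 0.00253 and 0.00258). Rptn differed by -4.36 and Cxcl1 by 3.36 (adjusted p = 0.0273 and 0.0248). Cathepsin L (Ctsl) and Sbsn, suprabasin of the upper layers, were called between the knockouts (Sbsn by -1.59 ± 0.16, adjusted p = 0.00208) but not in this term (-1.37 and -1.72, adjusted p = 0.116 and 0.0585). Tpsab1 and Ndufb10 also did not pass it (-2.94 and -0.54, adjusted p = 0.493 and 0.595). Named genes that did not pass it also include Btc, Lamb3, Cd151, Cldn4, Cdsn, Ivl, Asns, Hspa1a, Ccl11, Ccl27a, Csta1, Stfa2 and S100a4 (adjusted p of 0.0772 to 0.461). Of the 23 EGF receptor and immediate-early genes, 2 were higher in this term. Fos, Zfp36, Dusp1, Ier3 and Egfr did not pass it (adjusted p of 0.0616 to 0.516). Nor did Krt27, Sprr2i, Lce1g, Lce3b, Lce3c, Me1, Il7r, Id2, Pcna, Psmd11, Psmd6, Cdh5, Tnnt3, Slc4a1 and Hba-a1 (0.0583 to 0.871).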

How the data were processed

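The authors deposited a table of bead intensity averages, neither normalized nor background-subtracted per the file headers, with a detection p-value for every probe on every array. Their processed table, also deposited, holds linear, quantile normalized intensities (medians of 16.3 to 16.4, and 25.2% to 25.3% of values negative) and served as an alternative. The processing software is not given in the sources used here. Signals were corrected by normexp with controls inferred from the detection p-values and an offset of 16, quantile normalized over 12 arrays and log2 transformed, using limma 3.58.1 under R 4.3.3. The platform's annotation gave 23978 of 25697 probes 1 gene symbol, 0 several and 1719 none. The 13702 probes with a detection p under 0.05 on at least 3 of the 6 knockout arrays entered, and the probe with the highest mean stood for its gene (9637 genes and 804 unnamed probes). Of 2397 genes with several probes, 1 (Me1) had probes called in opposite directions and 242 were called on some only. Knockout and wild-type contrasts were fitted on 6 arrays each (4 residual degrees of freedom) by lmFit and eBayes, with Benjamini-Hochberg adjustment. The median SE was 0.18, and the number of arrays limits the precision. Promoter matching used RefSeq GRCm38.p6. The fit was tested on simulated data.

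Genes named are the keratins detected on all arrays of a knockout, the 8 largest rises and falls without overlap, up to 3 called members of each list with the smallest p, Tslp, Il33, Nfe2l2, Krt8, Krt18, Dapl1 and Xist, the 6 largest marked by the wild types, and called neighbours of the clusters. Krt18 and Dapl1 did not enter. Of the genes marked by the wild types, 1 is not reported here. Members and lists were chosen with earlier results of these data known. Same-numbered knockout arrays did not deviate together (r of -0.124, -0.004 and -0.056), so replicate numbers do not pair them. Alternatives were the 12-array model, background, scaling, filter, probe rule, replicate and title-number blocks, sex, and each array left out.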

Additional observations from a re-analysis of the deposited data

Results flagged for a closer look

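The changes of the knockouts against their own wild types differed for 341 genes by the test of that difference in limma, as given above. Among the named genes that passed it, 7 had changes that were called in both series and ran in opposite directions, as fitted. The difference of the changes, type II minus type I on the log2 scale, was 10.74 for Krt16 and 9.57 for Krt17, which rose in type II KO skin and fell in type I KO skin. Neither was detected in type I KO skin, so these are fitted values and not measured sizes. It was -7.04 for Krt5, -10.18 for Krt6b and -2.43 for Krt7, which fell in type II KO skin and rose in type I KO skin. Krt5 and Krt6b were not detected in type II KO skin, so their sizes are not measured either, and Krt6b was already near the dimmest detected level in type II WT skin (5.24 ± 0.29, SD, n = 3). Krt7 was detected on 2 of the 3 type II KO arrays. Outside the keratin clusters the difference of the changes was -2.44 for Wfdc5, with changes of -1.29 in type II KO and 1.16 in type I KO skin, and -3.36 for Smpd3, with changes of -2.18 in type II KO and 1.18 in type I KO skin (adjusted p = 0.0146 and 0.0023 for the differences).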

How the results depend on the processing

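Of the 107 named genes called between the knockouts, 61 stayed called under every alternative in which they were tested, 17 or 18 for each gene, 44 lost the call on leaving out at least 1 array, 9 of them under no other setting, and the only change of direction among the genes followed was Me1, at 0.35 with the mean of its probes. The count of 843 was 1704 in the model of all 12 arrays, of which 824 were among the 843, and 509 with the replicate block, of which 477 were. It was 1452 with the title number as a random block (correlation 0.214), whose meaning the labels do not give, and 255 to 1000 with 1 array left out. Median scaling gave 732, of which 28.6% were higher against 43.5%. The 152 wild-type calls became 92 without background correction, 83 without a filter on dim probes, 83 with the replicate block, 86 with the title number block, 30 with sex as a covariate and 18 to 135 with 1 array left out. The 36 genes marked by the wild types became 85 in the 12-array model, 21 without background correction, 15 without the filter, 21 with the replicate block, 13 with sex and 10 to 41 with 1 array left out. The 341 became 586 with the title number block and 167 to 685 with 1 array left out. Type II KO replicate 2 was the only Xist-high knockout array, so sex as a covariate there equals leaving it out (1000 called). The replicate block changed no call of a keratin except Krt84 and Krt90. Requiring detection on all 6 knockout arrays left 0 type II keratins called, since their probes no longer entered. Probes not above background in 1 knockout, 178 features, give only bounds. The causes of the other shifts were not tested.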

Other observations

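Further gene groups had few members called, against 8.07% over all features, so that most of these shares lie near or below the background. Called members are named here with values and after these were seen unless they were among the 3 smallest p of their list. Of 34 factors of basal cells and differentiation, 4 were lower in type II KO skin and 0 higher by limma (median 0.00): Calml3, a calmodulin-like protein of differentiating cells (-2.96 ± 0.52), Sbsn (-1.59 ± 0.16), the homeobox gene Dlx3 (-0.96 ± 0.18) and Id2, an inhibitor of helix-loop-helix factors (-0.89 ± 0.15), with adjusted p of 0.0167, 0.00208, 0.0229 and 0.0146. Without type I KO replicates 1 or 2, Sbsn alone of these kept its call. Calml3 lost its call also without type II KO replicate 1 or type I KO replicate 3. Of 33 proteasome genes, 3 were lower (Psmb1, Psmd11 and Psmd6 by -1.02 ± 0.15, -0.89 ± 0.16 and -0.82 ± 0.19, adjusted p = 0.00952, 0.0195 and 0.044), and the count was 1 without any 1 type I KO replicate. Psmd6 lost its call also without type II KO replicates 1 or 2. Of 39 cell cycle genes, Cdkn1a, a cyclin-dependent kinase inhibitor, was higher (0.93 ± 0.18) and Pcna, the replication clamp, lower (-0.98 ± 0.19, adjusted p = 0.0227 for both). Crabp2, a retinoic acid carrier, was lower (-1.17 ± 0.20, adjusted p = 0.0141), 1 of 16 retinoid genes. Eda2r, a receptor of ectodysplasin, was higher (0.91 ± 0.13, adjusted p = 0.00751), and with Dlx3 was the only one of 32 hair follicle and placode genes called. Of these, Cdkn1a, Pcna and Dlx3 lost their call without type II KO replicate 1 or any 1 type I KO replicate (0.0546 to 0.107, 0.0618 to 0.101 and 0.0506 to 0.102) and Crabp2 without type I KO replicates 2 or 3 (0.0577 to 0.067).

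Marker lists of other cell types showed single calls, against 8.07% over all features. The collagen Col1a2 was higher (1.45 ± 0.26, adjusted p = 0.0185) as 1 of 10 fibroblast markers, with 0.94 between the wild types (adjusted p = 0.32) and a difference of the changes of 0.51 (adjusted p = 0.727). Also higher were the myelin gene Mbp (1.03 ± 0.14, adjusted p = 0.00726) as 1 of 4 Schwann markers, and the cadherin Cdh5 (0.70 ± 0.16, adjusted p = 0.0369) as 1 of 7 endothelial markers. Col1a2 lost its call without type II KO replicate 1 or any 1 type I KO replicate (0.0509 to 0.0601), and Cdh5 without type II KO replicate 3 or any 1 type I KO replicate (0.0531 to 0.162). Mbp kept its call without each array in turn, but had an adjusted p of 0.238 with the mean of its probes. Of 6 adipocyte, 3 melanocyte, 7 macrophage and 4 neutrophil markers 0 were called by limma, and the T cell markers did not enter. All 7 macrophage markers had negative differences, and 3 of them were called lower without type II KO replicate 3. Of the melanocyte markers, 2 were called higher without type II KO replicate 2.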
